A study of Mus musculus with 6 samples.

Results

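The 9 genes described here encode the let-7 and developmental timing regulators of early progenitors. They are Trim71, Lin28a, Lin28b, Hmga1, Hmga2, Igf2bp1, Igf2bp2, Igf2bp3 and Dicer1, 9 of the 24503 gene symbols in the count table. Trim71 was chosen on its measured difference between KO and WT in these same libraries, so its values in that comparison are a description and carry no test. The other 8 were chosen by function, with that difference known. RNA-seq was done on primary neural stem cells taken from mouse cortex at E13.5, grown as neurospheres and then on laminin with FGF and EGF. KO cells carried Phf2 flox/flox alleles with the Nestin-Cre transgene B6.Cg-Tg(Nes-cre)1Kln/J (3 libraries). WT cells carried Phf2 flox/flox alleles and no Cre (3 libraries), so floxed Phf2 was common to both groups. Nestin-Cre acts in neural progenitors, and an effect of Phf2 recombination and one of the Cre transgene cannot be told apart here. The labels do not say whether the libraries came from separate embryos or cultures, so the p-values reflect the variation of these samples alone, which could be technical.

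let-7 is a family of microRNAs that accumulates as progenitors mature. In early embryonic cells LIN28A and LIN28B bind let-7 precursors and block their processing, and mature let-7 in turn represses a set of early genes through sites in their 3′ untranslated regions, LIN28 among them. TRIM71 (LIN41 in worms) is an RNA-binding ubiquitin ligase of early progenitors, HMGA1 and HMGA2 are chromatin proteins of fetal neural stem cells, the IGF2BP proteins bind and stabilise mRNAs, and DICER1 cuts microRNA precursors. PHF2, whose gene is floxed in these cells, is a Jumonji-family histone demethylase.

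The let-7 sequences matter here because their seed, bases 2 to 8, defines the sites searched for in the 9 genes. The 3 mature let-7 microRNAs below come from 1 cluster on chromosome 13, the chromosome of Phf2. Beside them miR-125b is shown because its seed was searched for in the same genes. Sequences are from RefSeq (GRCm38.p6), written 5′ to 3′, with the seed in capitals. The hairpins are Mirlet7a-1 (mature form at chr13:48538239-48538260, minus strand), Mirlet7f-1 (chr13:48537889-48537910, minus strand), Mirlet7d (chr13:48536078-48536099, minus strand) and Mir125b-1 (chr9:41581940-41581961, plus strand).
mmu-let-7a-5p: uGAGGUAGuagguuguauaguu
mmu-let-7f-5p: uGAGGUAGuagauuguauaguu
mmu-let-7d-5p: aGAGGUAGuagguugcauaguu
mmu-miR-125b-5p: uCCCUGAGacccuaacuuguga
The 3 let-7 forms share their seed and differ from each other outside it. The cluster lay 263.5 kb from Phf2 (chr13:48801750-48871119, minus strand, GRCm38). The table listed its hairpins, like the other let-7 hairpins and Mir98, at 0 counts in every library, so neither let-7 nor its change was measured.

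Matches to the let-7 seed were searched on the transcript strand of the annotated 3′ untranslated regions (GENCODE vM21). The motifs were CTACCTCA (8mer), CTACCTC (7mer-m8) and TACCTCA (7mer-A1), and because the 8mer holds both 7mers, each place was counted once. Of 19471 genes with an annotated 3′ untranslated region, 15.2% held a match and 0.55% held 3 or more. Hmga2 held 7 matches, Trim71 6, Lin28b and Igf2bp1 5 each, Lin28a and Igf2bp2 2 each, and Hmga1 and Igf2bp3 1 each, while Dicer1 held none. The sites below show the 8mers of Trim71, including a pair that lies 26 bases apart, and 1 site for each of the other genes that hold one. Capitals mark the bases of the match, and coordinates are GRCm38.
Trim71, chr9:114512468-114512493, minus strand: acattgcctaagtcCTACCTCAgctt
Trim71, chr9:114512372-114512397, minus strand: gtgataatttctatCTACCTCAactc
Trim71, chr9:114509043-114509068, minus strand: ttagtatggattttCTACCTCAattt
Trim71, chr9:114509017-114509042, minus strand: tggcaaaaagttgtCTACCTCAcgtc
Lin28a, chr4:134005185-134005210, minus strand: cacagcctgttgaaCTACCTCAtttt
Lin28b, chr10:45381018-45381043, minus strand: cccgggcgggaagtCTACCTCAtgca
Hmga1, chr17:27563277-27563302, plus strand: tcctctgttcacaaaCTACCTCtgga
Hmga2, chr10:120364220-120364245, minus strand: ccgacattcaatttCTACCTCAgcat
Igf2bp1, chr11:95961774-95961799, minus strand: ctgtgcgaagtaaaCTACCTCAaggt
Igf2bp2, chr16:22059469-22059494, minus strand: cacacaaataaaagCTACCTCAggtg
Igf2bp3, chr6:49086783-49086808, minus strand: gcatttttactcaaCTACCTCAggta
Trim71 was the richest in 8mers, with 4 of its 6 matches, whereas Hmga2 had 1 8mer among its 7 matches and Hmga1 had none. These are letters in annotated transcripts and were not tested as binding sites.

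**Figure D1:**
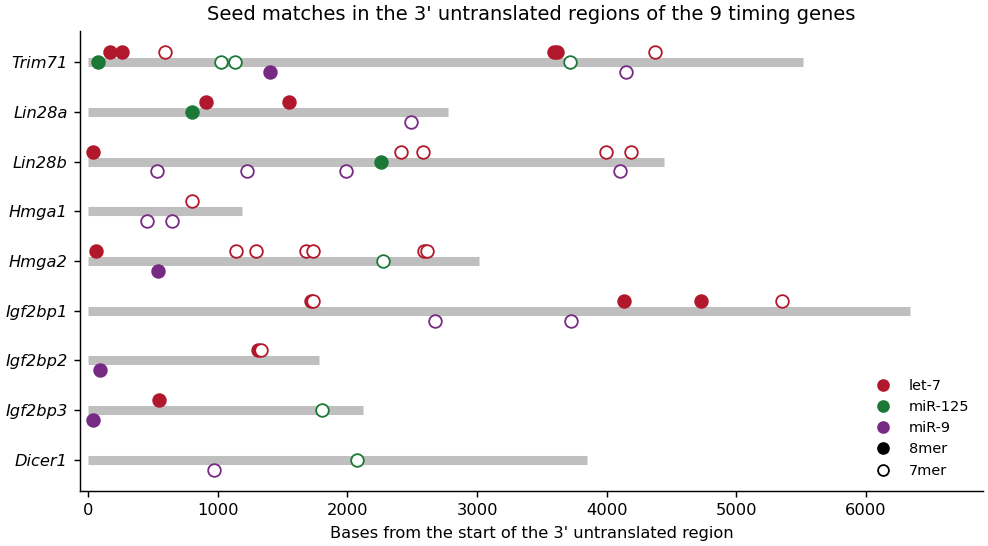
Positions of let-7, miR-125 and miR-9 seed matches along the annotated 3′ untranslated region of each gene (horizontal axis, bases from its start; grey bar, its length; filled circles, 8mers; open circles, 7mers). let-7 matches are spread over the long regions of Trim71, Lin28b, Hmga2 and Igf2bp1, and Dicer1 has none.

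The same search with the miR-125 seed (CTCAGGGA, CTCAGGG and TCAGGGA) found 4 matches in Trim71, 1 of them an 8mer, and 1 match in each of Lin28a, Lin28b, Hmga2, Igf2bp3 and Dicer1. A miR-125 match was present in 20.1% of all 3′ untranslated regions. The Trim71 8mer and those of Lin28a and Lin28b are shown because miR-125 is the mammalian relative of worm lin-4, which regulates the same pathway.
Trim71, chr9:114512555-114512580, minus strand: aaagaagaaatcgtCTCAGGGAtatt
Lin28a, chr4:134005297-134005322, minus strand: ggtacatgagcaatCTCAGGGAtaat
Lin28b, chr10:45378794-45378819, minus strand: gacaaagaactttgCTCAGGGAacat
The miR-9 seed (ACCAAAGA, ACCAAAG and CCAAAGA) matched all 9 genes, with 4 matches in Lin28b, 2 each in Trim71, Hmga1 and Igf2bp1 and 1 in each of the rest, against 20.8% of all 3′ untranslated regions with a match. Genes tested outside the 9 had a median 3′ untranslated region of 961 bases with no miR-9 match and 2118 bases with 1. Those of the 9 genes ran from 1183 bases in Hmga1 to 6337 bases in Igf2bp1. The part of length in the matches to these seeds was not tested.

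The 9 genes were present at very different levels in these cells. Levels between genes are given as CPM (counts scaled by TMM to a common library size) per kb of exon. Hmga1 stood highest, at 56.1 ± 15.2 in KO and 86.5 ± 30.3 in WT (SD, n = 3 each), above 95.2% of the genes tested. Igf2bp3 followed with 17.0 ± 1.11 in KO and 14.9 ± 1.09 in WT, and Igf2bp2 with 9.93 ± 0.204 in KO and 10.3 ± 0.354 in WT. Dicer1 had 5.90 ± 0.894 in KO and 5.56 ± 1.22 in WT, and Hmga2 had 4.81 ± 0.603 in KO and 5.99 ± 0.438 in WT. Trim71 was far lower, at 0.416 ± 0.0926 in KO and 0.142 ± 0.0487 in WT, and its mean over the 6 libraries lay at percentile 9.63 of the genes tested. Lin28a, Lin28b and Igf2bp1 lay at or near 0, each at 0.0119 or below in both groups. In this order the ranges over libraries overlapped between Dicer1 and Hmga2, between Lin28a and Lin28b, and between Lin28b and Igf2bp1, and the other neighbours did not overlap.

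**Figure D2:**
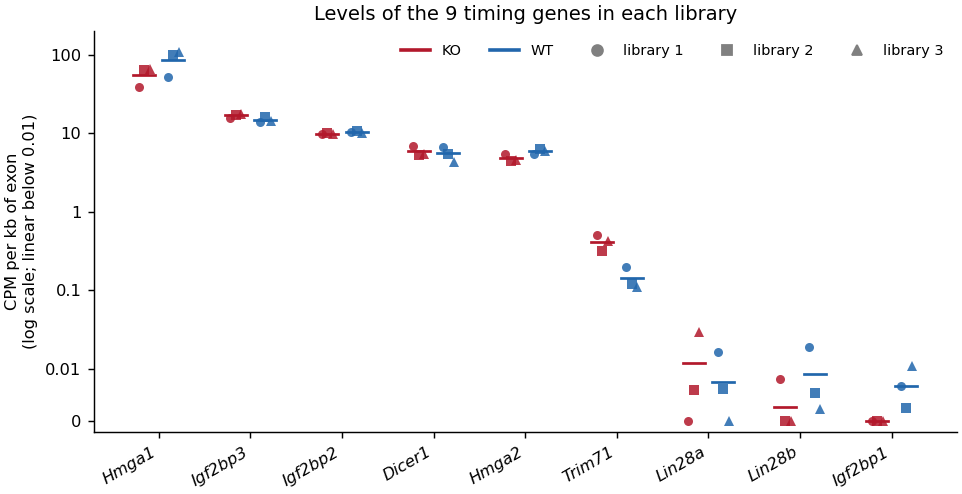
Level of each gene per library (vertical axis, CPM per kb of exon on a log scale, linear below 0.01; red, KO; blue, WT; symbols, library number; bars, group means). The genes fall from Hmga1 through Igf2bp3, Igf2bp2, Dicer1 and Hmga2 to Trim71, and Lin28a, Lin28b and Igf2bp1 sit at or near 0.

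Total counts ranged from 33413444 to 42503715 in KO libraries and from 39120340 to 46890314 in WT libraries. KO libraries had 56.3, 48.1 and 48.8 CPM of Phf2, against 109, 90.4 and 77.8 CPM in WT libraries 1, 2 and 3. The KO libraries all lay below the WT libraries, and about 0.553 of the WT mean remained. Phf2 was not called without the replicate number in the model (log2 fold change −0.85 ± 0.150, adjusted p = 0.182, edgeR) and was with it (−0.84 ± 0.0743, adjusted p = 0.000123). The counts cover the whole gene, so loss of the floxed part itself was not shown. The libraries numbered 1 stood apart from those numbered 2 and 3 in both groups, and a model that holds the replicate number constant (the replicate block) is therefore given beside the model without it. Without the block, 8 of 13683 genes (0.0585%) passed an adjusted p of 0.05 (edgeR quasi-likelihood test), while 795 had an unadjusted p below that value. With the replicate block 1340 genes (9.79%) passed, 456 higher (3.33%) and 884 lower (6.46%) in KO.

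Of the 9 genes, 6 passed the filter on low counts, and Lin28a, Lin28b and Igf2bp1 did not. None of the 6 was called without the block. With it 2 were called, Trim71 among the 3.33% of genes that were higher in KO and Hmga1 among the 6.46% that were lower. Since Trim71 was chosen on this contrast, nothing is read from that count.

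Trim71 (chr9:114507133-114564369, minus strand) had more counts in every KO library than in every WT library. It had 194, 127 and 132 counts in KO 1, 2 and 3, against 85, 45 and 48 counts in WT 1, 2 and 3. As CPM these were 4.72, 2.99 and 3.92 in KO and 1.85, 1.12 and 1.02 in WT. The lowest KO library thus stayed above the highest WT library, and both groups were low in absolute terms. The means were 3.88 ± 0.864 CPM in KO and 1.33 ± 0.454 CPM in WT (SD, n = 3 each), a ratio of 2.92. Within the library numbers, the log2 ratio of KO over WT was 1.35 for number 1, 1.42 for number 2 and 1.95 for number 3. The fitted log2 fold change was 1.54 ± 0.324 (SE) without the block and 1.56 ± 0.185 with it, given without a test. In bulk RNA a few cells with much Trim71 and many cells with little cannot be told apart.

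**Figure D3:**
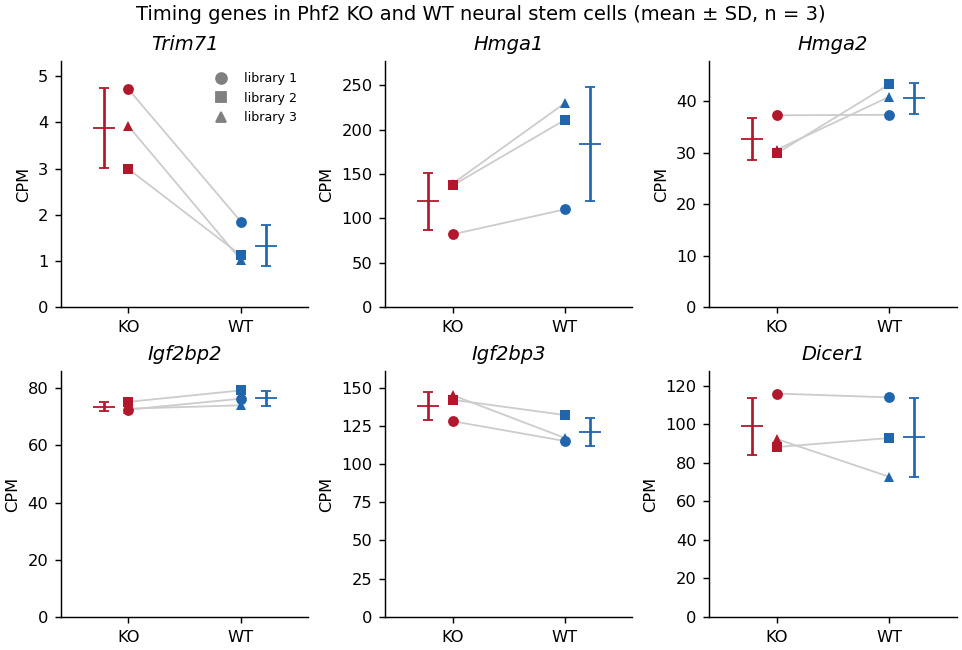
CPM of the 6 genes that passed the filter (vertical axes from 0; red, KO; blue, WT; symbols, library number, joined between KO and WT; bars beside the points, mean ± SD, n = 3). Trim71 is above WT in all KO libraries and Hmga1 is below WT within each number, while Igf2bp2, Igf2bp3 and Dicer1 overlap between groups.

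The LIN28 genes were barely detected. Lin28a (chr4:134003330-134018841, minus strand), the let-7 blocker of pluripotent and early neural cells, had 0, 1 and 4 counts in KO 1, 2 and 3, against 3, 1 and 0 counts in WT. Lin28b (chr10:45376620-45486395, minus strand), its paralog, had 3, 0 and 0 counts in KO, against 8, 2 and 1 counts in WT. Both genes had overlapping groups, and a floor of 3 counts corresponded to 0.0635 to 0.0892 CPM depending on the library. Igf2bp1 (chr11:95957163-96005940, minus strand), an mRNA-binding gene of the early cortex, had 0 counts in all KO libraries, against 3, 1 and 5 counts in WT. These 3 genes did not pass the filter on low counts, so a difference was not tested. With so few counts, no fold is given. The Trim71 values above come from these same libraries, in which both LIN28 genes were close to the floor, and a link between them was not tested.

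Hmga1 (chr17:27556497-27563674, plus strand), the AT-hook chromatin gene that keeps early mouse cortical precursors neurogenic, was lower in KO within each library number. It had 81.8, 137 and 139 CPM in KO 1, 2 and 3, against 110, 211 and 230 CPM in WT. The KO libraries 2 and 3 lay above WT 1, so the groups overlapped, and the libraries numbered 1 were the lowest of each group. The log2 ratio was −0.43, −0.62 and −0.73 for numbers 1, 2 and 3. Hmga1 fell with the replicate block, with a log2 fold change of −0.60 ± 0.071 (SE; adjusted p = 0.000675, edgeR), and was not called without it, at −0.62 ± 0.330 (adjusted p = 0.999). Reads shared with related sequences could be counted for or against Hmga1, so its level is uncertain. The libraries numbered 2 and 3 alone, 2 in each group, gave −0.68 (adjusted p = 0.00579, edgeR without the block).

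Hmga2 (chr10:120361275-120476469, minus strand), which sustains self-renewal of fetal mouse neural stem cells, had no KO library above a WT library. It had 37.3, 29.9 and 30.6 CPM in KO 1, 2 and 3, against 37.4, 43.3 and 40.9 CPM in WT. The groups touched in number 1, where the log2 ratio was −0.01, and stood apart in numbers 2 and 3, at −0.54 and −0.42. The share of all genes whose groups do not overlap was not computed. The means were 32.6 ± 4.08 CPM in KO and 40.6 ± 2.96 CPM in WT. Hmga2 was not called with the block, at −0.32 ± 0.101 (95% interval −0.54 to −0.09, adjusted p = 0.0783, edgeR), nor without it (−0.32 ± 0.130, adjusted p = 0.859). In the libraries numbered 2 and 3 alone, 2 in each group, it was called, at −0.48 ± 0.0795 (adjusted p = 0.0262, edgeR without the block). With KO 2 and KO 3 summed and the number 1 libraries kept, it was not called (−0.28 ± 0.119, adjusted p = 0.286, edgeR). The call thus depended on the libraries used. Trim71 and Hmga2, the genes of the set with the most let-7 matches, had log2 fold changes of opposite sign under every alternative tried. The sign of Trim71 was fixed by its choice, and the alternatives reuse the same libraries. Nothing is read from the opposite signs about let-7, which was not measured.

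HMGA2 is known in mouse neural stem cells for keeping the cell cycle inhibitors of the Cdkn2a locus low, through Junb. Of the 3 genes listed for this axis none was called without the block, and 2 fell with it, beside 6.46% of all genes lower and 3.33% higher. Cdkn2a (p16 and p19) had 14.8, 16.4 and 16.2 CPM in KO, against 22.5, 29.9 and 32.4 CPM in WT. Cdkn2b (p15) had 11.5, 9.83 and 8.06 CPM in KO, against 17.7, 19.1 and 21.3 CPM in WT. All KO libraries lay below all WT libraries for both genes, and the share of all genes with such a separation was not computed. The log2 fold change with the block was −0.83 ± 0.0935 for Cdkn2a (SE, adjusted p = 0.000503, edgeR) and −0.99 ± 0.135 for Cdkn2b (adjusted p = 0.00145). Without the block the adjusted p was 0.206 for Cdkn2a and 0.177 for Cdkn2b, and in the libraries numbered 2 and 3 alone it was 0.0042 for Cdkn2a and 0.00703 for Cdkn2b. Junb had 50.3, 190 and 194 CPM in KO, against 50.3, 163 and 181 CPM in WT, and was not called (adjusted p = 0.354 with the block).

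The IGF2BP genes bind mRNAs of growth factors and cytoskeleton, and IGF2BP2 is known in mouse for the switch of cortical precursors from neurons to astrocytes. Igf2bp2 (chr16:22059009-22163299, minus strand) had 72.5, 75.2 and 72.8 CPM in KO, against 76.3, 79.2 and 74.0 CPM in WT. Its 6 libraries lay close together, with overlapping groups and a log2 fold change of −0.06 ± 0.063 with the block (95% interval −0.20 to 0.08, adjusted p = 0.638, edgeR). Igf2bp3 (chr6:49085223-49214957, minus strand), an oncofetal relative, had 128, 142 and 145 CPM in KO, against 115, 132 and 117 CPM in WT. Its log2 ratio was above 0 in each number (0.15, 0.11 and 0.30), while the groups overlapped through KO 1 and WT 2. The fold change was 0.19 ± 0.0649 with the block (95% interval 0.04 to 0.33, adjusted p = 0.104, edgeR) and 0.19 ± 0.101 without it (adjusted p = 0.999). Of 7 listed mRNAs that IGF2BP proteins bind, none was called in either fit, and their median log2 fold change was −0.13 with the block, against 0.007 over all genes. Actb had 3050, 3170 and 3110 CPM in KO, against 2830, 2640 and 2950 CPM in WT (adjusted p = 0.261 with the block, edgeR). Myc had 177, 131 and 128 CPM in KO, against 164, 105 and 109 CPM in WT (adjusted p = 0.0613).

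Dicer1 (chr12:104687742-104751952, minus strand) had 116, 88.2 and 92.4 CPM in KO, against 114, 92.9 and 72.8 CPM in WT. The groups overlapped, and the log2 ratio was 0.03 and −0.07 in numbers 1 and 2 and 0.34 in number 3. Its fold change was 0.10 ± 0.0832 with the block (95% interval −0.09 to 0.28, adjusted p = 0.53, edgeR), and its sign turned when WT 3, KO 1 or both number 3 libraries were left out. The other factors that make, tail or use let-7, such as Drosha, Dgcr8, the argonautes and the TNRC6 proteins, were 21 genes, all of them tested. None was called in either fit, and their median log2 fold change was 0.08 without and 0.10 with the block, against 0.005 and 0.007 over all genes. Ddx5, a helicase of the Drosha complex, had 1150, 1200 and 1190 CPM in KO, against 1090, 1120 and 1130 CPM in WT (log2 fold change 0.08 ± 0.066 with the block, adjusted p = 0.496, edgeR). Hnrnpa1, which binds the let-7a-1 precursor in human cells, had 773, 535 and 525 CPM in KO, against 714, 485 and 504 CPM in WT (0.11 ± 0.0641, adjusted p = 0.364). Huwe1, host of let-7f-2 and miR-98, and Wdr82, which overlaps let-7g, were the tested host genes, and neither was called (adjusted p = 0.477 and 0.876 with the block, edgeR).

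**Figure D4:**
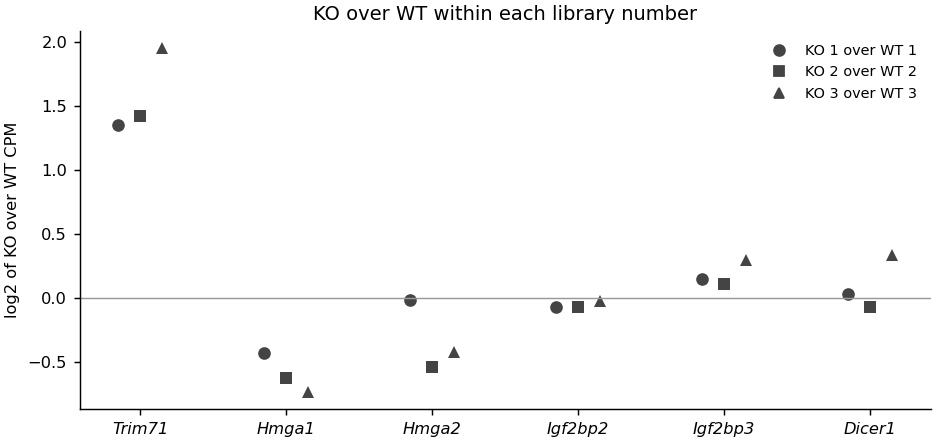
Log2 of KO over WT CPM (vertical axis) within each library number for the 6 tested genes. Trim71 lies between 1.35 and 1.95, Hmga1 between −0.73 and −0.43, Hmga2 between −0.54 and −0.01, and Dicer1 on both sides of 0.

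The replicate number was not used in choosing the genes and could be tested in both groups together (edgeR quasi-likelihood test with genotype in the model). It was called for 6703 of 13683 genes (49.0%), and for 2 of the 6 timing genes. Hmga1 was 0.84 and 0.91 log2 units higher in numbers 2 and 3 than in number 1 (adjusted p = 4.4e-05). Dicer1 was 0.34 and 0.48 log2 units lower in numbers 2 and 3 (fitted as −0.34 and −0.48, adjusted p = 0.00705). Trim71, highest in number 1 of both groups, differed by −0.69 and −0.51 from number 1 (adjusted p = 0.0523) and so was not called. Hmga2, Igf2bp2 and Igf2bp3 were not called either (adjusted p = 0.837, 0.695 and 0.213). A share of 2 in 6 is not read as particular to these genes beside 49.0% of all genes.

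Known let-7 targets other than the 9 genes formed a list of 27, all of them tested. Without the block none was called, and with it 1 rose and 2 fell, beside 3.33% and 6.46% of all genes, with a median log2 fold change of 0.05, against 0.007 over all genes. These shares are near those of all genes, and nothing is read from them about let-7 targets. Igf1r, the receptor of insulin-like growth factors, rose, with 107, 80.5 and 83.3 CPM in KO, against 84.2, 70.2 and 51.6 CPM in WT (0.41 ± 0.0905, adjusted p = 0.019, edgeR with the block). Ccnd2, the D-type cyclin of cortical progenitors, fell, with 1240, 1060 and 1060 CPM in KO, against 1640, 1550 and 1280 CPM in WT (−0.40 ± 0.0759, adjusted p = 0.0088). Fas, a death receptor gene, also fell (−0.46 ± 0.0974, adjusted p = 0.0146). In the libraries numbered 2 and 3 alone, Ccnd2 and Igf1r were not called (adjusted p = 0.0974 and 0.177) and Fas was (adjusted p = 0.0486). With KO 2 and KO 3 summed none of the 3 was called (adjusted p = 0.0785 for Ccnd2, 0.136 for Igf1r and 0.0552 for Fas, edgeR).

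TRIM71 itself represses mRNAs, and 5 of 6 listed targets from mouse and human cells were tested. Cdkn1a, the p21 cell cycle inhibitor, fell with the block, with 385, 412 and 410 CPM in KO, against 485, 488 and 534 CPM in WT (−0.32 ± 0.0648, adjusted p = 0.0125, edgeR). It was not called without the block (adjusted p = 0.47) or in numbers 2 and 3 alone (adjusted p = 0.0577), nor with KO 2 and KO 3 summed (adjusted p = 0.077). The other 4, Egr1, Rbl1, Rbl2 and Mbnl1, were not called in either fit. With the block, 6.46% of all genes were lower and 3.33% higher. Nothing is read about TRIM71 targets from 1 call among 5 genes. Egr1, an immediate early gene, had 383, 664 and 669 CPM in KO, against 393, 649 and 566 CPM in WT, with the number 1 library lowest in both groups.

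Factors of the later, gliogenic phase of cortical precursors were represented by 9 tested genes. Nr2f1 (COUP-TFI), a nuclear receptor of the switch towards glia in mouse, rose with the block and was not called without it (adjusted p = 0.933). It had 34.7, 65.1 and 59.3 CPM in KO, against 26.3, 38.0 and 39.3 CPM in WT (0.59 ± 0.0842, adjusted p = 0.00186, edgeR with the block), and it was also called in numbers 2 and 3 alone (adjusted p = 0.00819). The other 8, Nfia, Nfib, Nfix, Zbtb20, Sox9, Nr2f2, Stat3 and Olig2, were not called in either fit. With the block, 3.33% of all genes were higher and 6.46% lower. Nothing is read about gliogenic factors from 1 call among 9 genes. Olig2 had 1230, 1080 and 1040 CPM in KO, against 1250, 1140 and 1200 CPM in WT, and Stat3 had 327, 449 and 435 CPM in KO, against 304, 441 and 415 CPM in WT.

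The 6 tested genes were also set among all genes with the same number of let-7 matches, the 9 genes left out. With the block, the median log2 fold change was 0.005 in 10436 genes with no match, 0.018 in 1771 genes with 1, 0.023 in 329 genes with 2 and 0.081 in 76 genes with 3 or more. In the last class 3.95% of genes were called higher and 5.26% lower, against 3.33% and 6.46% of all genes. Trim71, at 1.56, and Hmga2, at −0.32, lay on either side of that class median. The class with 3 or more matches also had longer 3′ untranslated regions, with a median of 5171 bases against 1028 bases with no match. By library number its median log2 ratio was 0.034, −0.017 and 0.237, so number 3 carried most of it. Genes with 3 or more miR-125 or miR-9 matches had medians of 0.128 and 0.125 in number 3 as well, and the part of length in these medians was not tested.

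**Figure D5:**
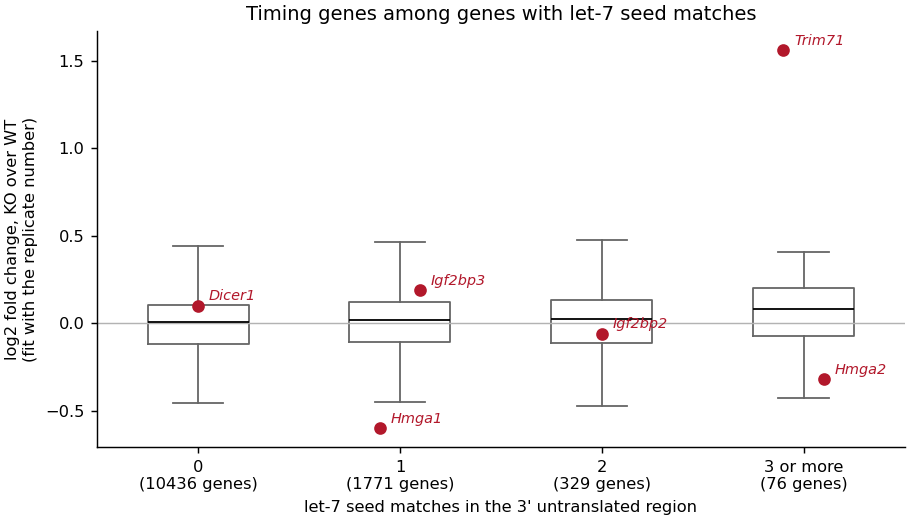
Log2 fold change of KO over WT from the fit with the replicate number (vertical axis) for genes with 0, 1, 2 or 3 or more let-7 seed matches (boxes, quartiles; line, median; whiskers, up to 1.5 interquartile ranges; outlying genes not drawn). The 6 tested timing genes are red points: Trim71 at 1.56 lies above its class, and Hmga2 and Hmga1 lie below the class medians.

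Only 15 genes of the table held 5 or more let-7 matches, and Trim71, Hmga2, Igf2bp1 and Lin28b were 4 of them. Of the other 11, 10 were tested, and none was called without the block. With it 1 was lower in KO and none was higher, beside 6.46% and 3.33% of all genes, with a median log2 fold change of 0.18. The 1 called was Mcf2l, a guanine nucleotide exchange factor gene with 7 matches, all 8mers. Mcf2l had 4.31, 13.0 and 11.7 CPM in KO, against 5.91, 18.7 and 17.3 CPM in WT (−0.52 ± 0.0972, adjusted p = 0.0081, edgeR with the block). Its groups overlapped, and its adjusted p without the block was 0.999. Nr6a1, an orphan nuclear receptor of early embryos with 8 matches, had 2.85, 2.57 and 2.74 CPM in KO, against 2.22, 2.06 and 1.93 CPM in WT. All its KO libraries lay above all its WT libraries, and the share of all genes with such a separation was not computed. Nr6a1 was not called (0.39 ± 0.165, adjusted p = 0.179, edgeR with the block). Clcn5, Fign, Arid3b, Hic2, Hif1an and Zfp652 had overlapping groups and were not called, like D10Wsu102e and D1Ertd622e, whose annotated 3′ untranslated regions were unusually long at 122583 and 39397 bases.

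The genes whose pattern was most like Trim71 were named by Pearson's r of log2 CPM over the 6 libraries, among the 11178 genes averaging 2 CPM or more. Among them were Nr6a1 (r = 0.994), Lgr5 (0.990), Pard6g (0.990) and Wipf1 (0.988), and the most opposite were Mtmr11 (−0.999) and Lmcd1 (−0.997). These are descriptions over 6 libraries that share the split of number 1 from numbers 2 and 3. The Trim71 profile also holds the KO and WT difference it was chosen on, so genes with a like difference rank high by construction. Nr6a1 is itself among the let-7 targets listed, and nothing about let-7 is read from its rank. Lgr5, a Wnt pathway receptor, averaged 10.4 CPM in KO and 4.18 CPM in WT. Among the timing genes, r with Trim71 was −0.825 for Hmga1, −0.726 for Hmga2, −0.670 for Igf2bp2, 0.554 for Igf2bp3 and 0.538 for Dicer1. The genes most like Hmga2 were Bbs10 (0.971), C77080 (0.969), Lyrm1 (0.963), Ntn1 (0.961) and Chst2 (0.957), and Ntn1, a guidance cue, averaged 204 CPM in KO and 261 CPM in WT.

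The cells carried neural stem cell markers as labelled, with 9 of 9 tested and summed levels of 9250 to 10500 CPM in KO libraries and 9340 to 10700 CPM in WT libraries. These sums hide differences between library numbers. Hes5 had 23.4, 312 and 290 CPM in KO 1, 2 and 3, against 18.3, 232 and 255 CPM in WT. Nes, highest in number 1 of both groups, had 1750, 758 and 807 CPM in KO, against 1740, 687 and 712 CPM in WT. None of the 9 was called without the block. With it 1, Hes5, was higher in KO (adjusted p = 0.0161, edgeR), a call lost in numbers 2 and 3 alone (adjusted p = 0.0692) and with KO 2 and KO 3 summed (adjusted p = 0.0583). Markers of pluripotent and germ cells, which express Trim71 and Lin28a strongly, summed to 2.71 to 3.53 CPM in KO libraries and 3.30 to 11.1 CPM in WT libraries. Of these 14 markers 4 were tested and none was called, and Pou5f1, Zfp42, Dppa3, Dppa4, Dppa5a, Tdgf1 and Utf1 were at 0 in every library. Esrrb had 1.90, 1.06 and 0.714 CPM in KO, against 9.18, 1.12 and 1.31 CPM in WT. No marker of the other lists was called without the block either, and the calls that follow are those with it, beside 3.33% of all genes higher and 6.46% lower. Of 7 tested astrocyte markers 4 fell and 1 rose (471 to 984 CPM summed in KO, 543 to 1180 CPM in WT), and 2 of 4 neuron markers fell (30.3 to 66.1 CPM in KO, 54.2 to 118 CPM in WT). Of 4 oligodendrocyte lineage markers 1 rose and 1 fell (159 to 254 CPM in KO, 107 to 198 CPM in WT), and of 5 mesenchyme markers 2 rose and 1 fell (40 to 65.3 CPM in KO, 35.3 to 46.5 CPM in WT). In numbers 2 and 3 alone Slc1a2, Gja1, Aldoc, Stmn2 and Foxc1 lost their calls (adjusted p = 0.136, 0.15, 0.182, 0.0528 and 0.0934, edgeR), and with KO 2 and KO 3 summed Gja1, Aldoc and Stmn2 did (adjusted p = 0.128, 0.128 and 0.0911). Microglia markers summed to 0.707 to 1.14 CPM in KO and 0.421 to 0.804 CPM in WT, with Aif1 and Ptprc at 0, and endothelium markers to 1.41 to 2.02 CPM in KO and 1.39 to 2.07 CPM in WT, and none of either list was called. The part of these markers in the values of Trim71, Hmga1 and Hmga2 was not tested.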

How the data were processed

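The authors deposited 1 table of raw, whole-number counts for each gene symbol. RSEM and Bowtie2 on mm10, after Trim Galore, cutadapt and FastQC, are named per the submitters' processing notes. Versions, annotation, strand setting and rounding: not given in the sources used here. Without strand, reads of overlapping antisense genes cannot be told apart. Groups and numbers came from the sample titles.

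Counts were tested in R 4.3.3 with edgeR 4.0.16: filterByExpr by group (13683 of 24503 symbols kept; 7018 had 0 counts in every library), TMM scaling, robust quasi-likelihood fit, two-sided test, Benjamini-Hochberg adjustment over all genes, called at adjusted p under 0.05. The SE is the log2 fold change over the square root of F. Alternatives used DESeq2 1.42.0, other scaling, no filter, left-out libraries and the replicate number as a block. The step was tested on simulated counts. Correlations used log2 CPM with a prior count of 2.

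The numbers were treated as pairs because deviations from the group means correlated across genes, at 0.854 (KO 1 with WT 1), 0.604 (KO 2 with WT 2) and 0.58 (KO 3 with WT 3), over the limit of 0.1; numbers 2 and 3 correlated as highly with each other (0.633 and 0.578), so the pairing rests on number 1 against the rest. KO 2 and KO 3 differed least of all pairs (median chi-square 1.02 over genes with 40 or more counts, 19.5% of genes over the 95% limit) but by more than counting noise, and were kept as 2 samples, with their sum as an alternative.

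Positions, exon lengths and 3′ untranslated regions came from GENCODE vM21 on GRCm38, the assembly mm10 names, with 23334 symbols (95.2%) matched. Per gene the region of 1 protein-coding transcript was searched, the longest among its GENCODE basic transcripts. All 9 genes matched. The genes, lists and tests were chosen with earlier results of these data known. From each list, the genes named were those called with the block, up to 4, or the 2 most abundant where fewer than 2 were called, with further members added where a count of 5 or fewer needed names. Part of what these rules name is not reported here.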

Additional observations from a re-analysis of the deposited data

How the results depend on the processing

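Over all genes the count called was 8 without the block, 1340 with the replicate block, 262 with DESeq2, 1268 with DESeq2 and the block, 743 in the libraries numbered 2 and 3 alone, 688 with KO 2 and KO 3 summed, 1310 with the block and upper-quartile scaling, and 0 to 21 when 1 library was left out. The number of timing genes called was 0 without the block and 2 with the replicate block (Trim71, Hmga1), 1 with DESeq2 (Trim71), 2 with DESeq2 and the block, 3 in numbers 2 and 3 alone (with Hmga2), 2 with KO 2 and KO 3 summed and 2 with the block and upper-quartile scaling. Each count of timing genes above 0, here and below, includes Trim71, which was chosen on this contrast, so nothing is read from these counts. Of the 73 tested genes of the pathway and target lists, the cell type marker lists left out, those called were 0 without the block, 7 with the replicate block, 3 with DESeq2, 9 with DESeq2 and the block, 4 in numbers 2 and 3 alone, 3 with KO 2 and KO 3 summed and 8 with the block and upper-quartile scaling. With the block and 1 number left out, added after seeing the data like the block with upper-quartile scaling, these counts were 1037, 1248 and 1456 without number 1, 2 and 3 for all genes, 2 to 3 for the timing genes and 5 to 10 for these list genes. Dicer1 had up to 0.27 without WT replicate 1 and turned to −0.07 without WT replicate 3, −0.04 without KO replicate 1 and −0.02 with the block and without replicate 3; the cause was not tested.

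Trim71 stayed between 1.38 and 1.87, Hmga1 between −0.88 and −0.41, Hmga2 between −0.48 and −0.21, Igf2bp2 between −0.09 and −0.03 and Igf2bp3 between 0.13 and 0.25 (log2) over all alternatives. The let-7 class median stayed between −0.018 and 0.18, and the order of levels kept all 9 places. Lin28a, Lin28b and Igf2bp1 had few counts, and their fold changes were not followed over the alternatives.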

Other observations

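Between the let-7 cluster on chromosome 13 and Phf2 the table listed 5 genes, the hairpins Mirlet7a-1, Mirlet7f-1 and Mirlet7d included. Ptpdc1, the 1 that was tested, averaged 31.4 ± 10.2 CPM in KO and 30.8 ± 10.0 CPM in WT (SD, n = 3 each), with a log2 fold change of 0.03 ± 0.0736 with the replicate block (adjusted p = 0.857, edgeR). The 8mer class of let-7 genes was small: 16 genes outside the 9 described had 2 such matches and 4 had 3 or more, with median log2 fold changes of 0.108 and 0.271 with the block. By library number these medians were −0.018, −0.052 and 0.344 for 2 matches and 0.058, 0.126 and 0.482 for 3 or more, so they were largest in number 3. Of these 4 genes 1, Mcf2l, was called lower with the block.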
